A study of Mus musculus with 11 samples.

Results

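All cells of the E16 libraries were compared with all cells of the P1 libraries, so that the floor of the cochlear duct was measured as a whole tissue at each age. The comparison held 22004 of the 30634 cells in the series, 7961 from 3 libraries of embryonic day 16 (E16) and 14043 from 4 libraries of postnatal day 1 (P1). Every cell that the deposited tables list for these 7 libraries was kept, and no cell type was selected. The mice were wild type CD1 animals, neither stage received a treatment, and for each collection the cochleae of several embryos or pups were pooled before the epithelium was dissociated into single cells and captured on the 10x Chromium platform. Roof and lateral wall were removed at dissection, per the study's methods, though some cells high in Oc90, a roof gene, were left in every library. Each library is a mixture of hair cells (HCs), supporting cells (SCs), cells of Kölliker's organ and lateral cells. No library holds both ages, so stage, collection and the mix of cell types cannot be told apart.

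The floor of the mouse cochlear duct builds the organ of Corti. Between these ages the sensory precursors have left the cell cycle, HCs grow their stereocilia, the apical bundles that sense sound, and their synapses onto spiral ganglion neurons, and SCs become pillar, Deiters' and phalangeal cells. Medial to them, Kölliker's organ, a transient epithelium, secretes collagens and tectorins that form the tectorial membrane, the extracellular gel that overlies the hair bundles, and the cells of the floor become joined by gap junctions.

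For each library the deposited value of each gene and cell was taken out of its natural log, and averaged over cells. The level is given as CPM, how many of every 1000000 unique molecular identifiers (UMIs) in the average cell came from the gene. Libraries held 1247 to 3901 cells at E16 and 2179 to 5598 cells at P1. The median cell of a library had 2478, 2695 and 2750 UMIs at E16 and 5647.5, 5227, 5643 and 3831.5 UMIs at P1, so every P1 library was deeper per cell. A pair of libraries shared 2 to 36 cell barcodes, at most 0.923% of the smaller library. Some libraries stood apart from the others of their age. Across genes, the log2 levels of P1 replicates 2 and 3 correlated at 0.986, and those of P1 replicate 4 correlated with the other P1 libraries at 0.885 to 0.928. E16 replicates 1 and 2 correlated at 0.980, and replicate 3 with them at 0.934 and 0.950. Epithelial identity was checked with 9 markers of the duct epithelium, all detected, whose summed level was 2395 to 4936 CPM at E16 and 3489 to 6162 CPM at P1. The 10 HC markers were all detected too, with sums of 979 to 2291 CPM at E16 and 1668 to 2534 CPM at P1.

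Of 20818 genes with rows in both tables, 10946 had a mean of at least 5 CPM over the 7 libraries and were tested with limma on log2(CPM + 1), 3 E16 against 4 P1 libraries. At an adjusted p of 0.05, 370 genes (3.38% of those tested) were higher at P1 and 408 (3.73%) were lower. With a difference of at least 2-fold as a further condition, 268 genes (2.45%) were higher and 361 (3.3%) were lower. All P1 libraries lay above all E16 libraries for 1152 genes (10.5%), and below them for 1097 (10%). These shares over all tested genes are the background for the counts of list members below. Several lists with few or no calls lie near them. As the filter is a mean over both stages, a gene could pass it through its level at a single stage. The median log2 difference over all tested genes was -0.03. Log2 differences below are P1 minus E16 on the log2(CPM + 1) scale, with the standard error (SE), and understate the change of low genes. A level is a mean over all cells of a library, in which fewer cells of a type and less RNA per cell cannot be told apart. With ribosomal, mitochondrial and haemoglobin genes left out of each cell's total, 303 genes were higher and 585 lower, so that 34.1% of calls were higher against 47.6%, and the median over all genes was -0.13. With the log values averaged over cells, 1512 were higher and 277 lower (84.5% higher). This average also depends on the UMIs per cell, which were more in every P1 library, and the part of depth in it was not tested. The counts rest unevenly on the libraries. Without E16 replicate 1, 128 genes were higher and 110 lower, without E16 replicate 2, 138 and 132, and without E16 replicate 3, 400 and 642. Without P1 replicate 1, 608 were higher and 621 lower, without P1 replicate 2, 207 and 224, and without P1 replicate 3, 202 and 213.

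Among the genes picked by size of change (see the plot of the largest changes), Podn rose most. It encodes podocan, a secreted small leucine-rich proteoglycan. Its level was 0, 0.394 and 0.577 CPM in the E16 libraries and 88.4, 50.9, 52.5 and 52.7 CPM in the P1 libraries, a log2 difference of 5.54 (SE 0.30, limma adjusted p = 4.6e-06). With each cell thinned to 1500 UMIs, a UMI of Podn was found in 0.0375% of E16 cells and 7.83% of P1 cells, as means over libraries. In the E14 and P7 libraries, 2 at each age in tables that the authors normalized separately, it was 2.1 and 2.33 CPM and 7.00 and 4.39 CPM. The 4 P1 libraries thus stood above those of each other age. Podn lies on chr4:108014791-108096445, minus strand (GRCm38.p6). Spink5, which encodes a secreted serine protease inhibitor, had 1.79, 2.06 and 0.964 CPM at E16 and 59.5, 62.7, 68.8 and 76.0 CPM at P1, a log2 difference of 4.72 (SE 0.25, limma adjusted p = 4.6e-06). At P7 it was back at 0.245 and 0 CPM. For both genes the P1 libraries were within 2-fold of each other.

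Pthlh, which encodes parathyroid hormone-like peptide, a secreted signal, was 8.39, 16.6 and 19.1 CPM at E16 and 91.5, 126, 94.0 and 186 CPM at P1 (log2 difference 3.01, SE 0.32, limma adjusted p = 0.00083). The E14 levels of 12.4 and 11.7 CPM and the P7 levels of 7.24 and 22.7 CPM lay near those of E16. Itm2a, a gene for a type II membrane protein, was 87.7, 95.3 and 113 CPM at E16 and 805, 493, 412 and 671 CPM at P1 (log2 difference 2.54, SE 0.24, limma adjusted p = 0.00039). With each cell thinned to 1500 UMIs, its UMIs were found in 10.9% of E16 cells and 39.6% of P1 cells, as means over libraries. At E14 and P7 Itm2a was 45.2 to 79.3 CPM. Clu encodes clusterin, a secreted chaperone. Its level was 2641, 3079 and 6686 CPM at E16 and 15150.0, 21072, 17586 and 21402 CPM at P1 (log2 difference 2.30, SE 0.30, limma adjusted p = 0.0017). E16 replicate 3 was the highest of the E16 libraries and still far under the lowest P1 library. At P7 Clu was 5449.6 and 4547 CPM.

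Stmn2, which encodes a microtubule-destabilizing phosphoprotein best known from growing axons, was 19.5, 22.9 and 28.8 CPM at E16 and 211, 231, 203 and 56.8 CPM at P1 (log2 difference 2.67, SE 0.43, limma adjusted p = 0.0044). P1 replicate 4 was far below the other P1 libraries, yet above every E16 library. The remaining genes among the 12 largest rises were Calb2, Ppp1r27, P4ha2 and Pdia5, which are taken up with their groups below, Cpxm2, a gene for a secreted carboxypeptidase-like protein (log2 difference 2.30), and Pla2g7, a gene for a secreted phospholipase (log2 difference 2.2). 

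**Figure D1:**
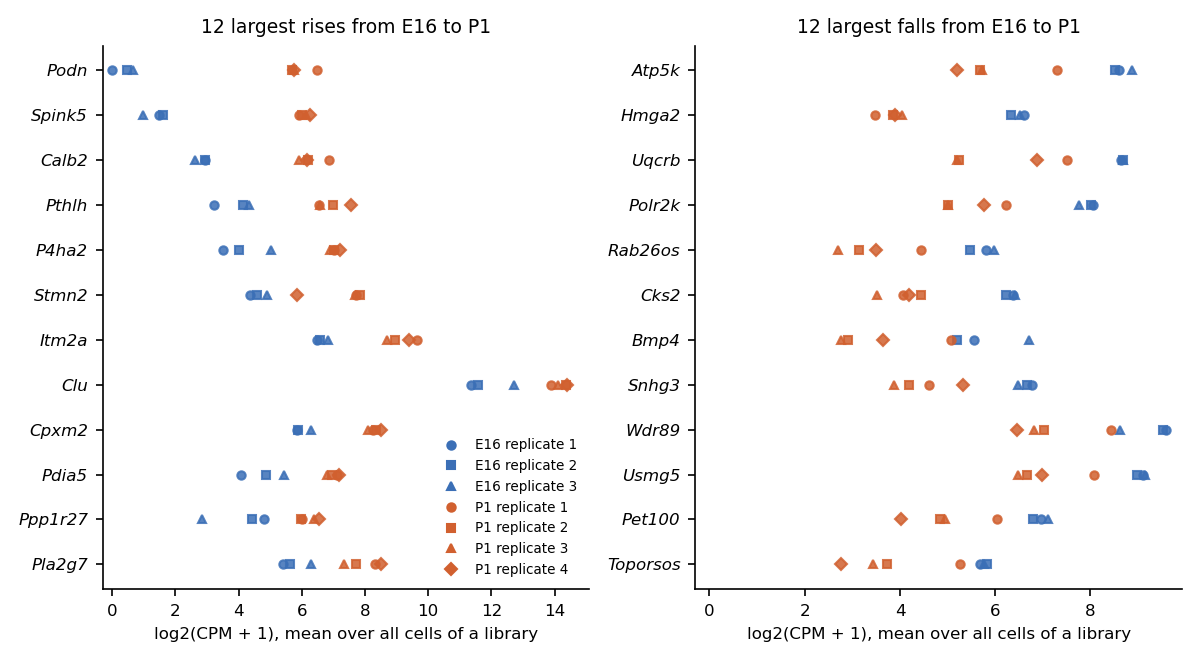
Levels of the 12 genes with the largest rise and the 12 with the largest fall from E16 to P1 among genes past the limma adjusted p of 0.05, with a mean of at least 50 CPM in the higher stage and libraries that do not overlap. Each point is 1 library (3 at E16, 4 at P1), on an axis of log2(CPM + 1). Podn is at most 0.577 CPM at E16 and at least 50.9 CPM at P1, and Hmga2 is at least 79.3 CPM at E16 and at most 15.4 CPM at P1.

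The fallen genes of the same rule were led by Atp5k, which encodes a small subunit of the mitochondrial ATP synthase, and Hmga2, an architectural chromatin protein of embryonic tissue. Hmga2 was 95.8, 79.3 and 90.6 CPM at E16 and 10.1, 13.5, 15.4 and 13.9 CPM at P1, a log2 difference of -2.66 (SE 0.23, limma adjusted p = 0.00018). The E14 libraries had 201 and 201 CPM and the P7 libraries 1.09 and 1.12 CPM, each age below the one before it. Hmga2 belongs to a list of 10 heterochronic genes, RNA-binding and HMGA proteins of the embryonic state, of which 7 were tested, none rose and Hmga2 was the 1 that fell. The median log2 difference of these 7 was -0.81. Atp5k was 388, 365 and 465 CPM at E16 and 157, 50.3, 52.1 and 35.5 CPM at P1 (log2 difference -2.68, SE 0.40, limma adjusted p = 0.0033). Here the E14 levels, 66.6 and 94.5 CPM, lay with those of P1 and not with those of E16. The same held for Uqcrb, a small subunit of respiratory complex III, which was 397 to 410.0 CPM at E16, 35.8 to 180.0 CPM at P1 and 67.9 and 86.1 CPM at E14. Polr2k, a small RNA polymerase subunit, Usmg5 and Pet100, which encode small mitochondrial proteins, and the snoRNA host gene Snhg3 had E14 levels in or near the P1 range as well. For Polr2k these were 50.8 and 66.2 CPM at E14 against 217 to 265 CPM at E16 and 31.2 to 73.6 CPM at P1. Rab26os, Toporsos and Wdr89 also fell, with log2 differences of -2.29, -1.96 and -2.06. The first pair are antisense or overlapping transcripts, no strand is stated for the counting, and their reads may belong to a neighbouring gene. Cks2 and Bmp4, the other 2 of the 12, are described with the dividing-cell and signalling genes.

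Most tested genes of the last cell cycle phases fell. Of 20 genes of the G2 and M phases of the cell cycle, which drive chromosome condensation and segregation, 9 passed the filter, none rose and 7 fell (Top2a, Cdk1, Ccnb1, Ube2c, Birc5, Cenpf and Nusap1). The other 11 had a mean under 5 CPM over the 7 libraries and were not tested. Among them Mki67, a proliferation marker, was 13.3, 9.16 and 3.21 CPM at E16 and 2.80, 1.35, 1.70 and 1.41 CPM at P1. The median log2 difference of the 9 was -2.61. The filter is a mean over both stages. Ube2c, Top2a and Cenpf were under 5 CPM in every P1 library, so they passed it through their E16 levels. The count and the median of the 9 rest in part on genes admitted this way. The summed level of the 20 genes was 256, 263 and 124 CPM at E16 and 23.4, 34.4, 29.6 and 56.3 CPM at P1. At E14 the sum was 603 and 739 CPM and at P7 69.5 and 91.4 CPM. Ube2c, the ubiquitin-conjugating enzyme of the anaphase-promoting complex, was 39.1, 47.1 and 18.8 CPM at E16 and 0.735, 4.75, 2.29 and 1.14 CPM at P1 (log2 difference -3.54, SE 0.45, limma adjusted p = 0.0016). Top2a, the topoisomerase that untangles replicated chromosomes, was 27.4, 14.5 and 4.46 CPM at E16 and 0.415, 0.606, 0.363 and 1.02 CPM at P1 (log2 difference -3.08, SE 0.49, limma adjusted p = 0.0044). E16 replicate 3 had the lowest E16 level of both genes, and still lay above the P1 libraries. Cdc20 and Aurka overlapped between the stages (log2 differences of -1.54 and -0.57, limma adjusted p = 0.07 and 0.47).

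Promoters of genes of this phase commonly carry CCAAT boxes and the cell cycle homology region, whose core was searched here as TTTGAA, both on either strand. In the RefSeq windows of 250 bases before each gene's start (GRCm38.p6), CCAAT was found in 14 of 17 G2 and M phase genes with a window and in 37.5% of 27025 genes. TTTGAA was found in 7 of the 17 and in 18.3% of all genes. Of the 9 tested genes, all with a window, CCAAT was found in 7 and TTTGAA in 4. Those with CCAAT include Aurka and Cdc20, which were not called, and leave out Birc5 and Nusap1, which fell. Cdc20 carries TTTGAA as well. Aurka and Cdc20 were the only tested genes not called, and both had negative log2 differences. So few genes cannot show whether the motifs follow the calls. The windows of 3 genes that fell are shown because they carry several copies between them, with both motifs, read on either strand, in capitals. They lie on chr11:99024190-99024439, minus strand, for Top2a, chr10:69352913-69353162, minus strand, for Cdk1 and chr1:189688087-189688336, minus strand, for Cenpf.
Top2a: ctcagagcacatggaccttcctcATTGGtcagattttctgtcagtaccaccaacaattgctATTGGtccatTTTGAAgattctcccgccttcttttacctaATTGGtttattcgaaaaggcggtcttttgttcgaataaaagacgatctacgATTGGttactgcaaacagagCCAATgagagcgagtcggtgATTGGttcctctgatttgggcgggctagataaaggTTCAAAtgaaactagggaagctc
Cdk1: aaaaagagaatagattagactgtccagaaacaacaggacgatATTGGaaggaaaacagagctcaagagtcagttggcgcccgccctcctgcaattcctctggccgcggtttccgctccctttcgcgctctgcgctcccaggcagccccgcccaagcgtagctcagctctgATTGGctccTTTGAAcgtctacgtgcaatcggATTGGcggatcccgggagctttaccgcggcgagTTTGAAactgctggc
Cenpf: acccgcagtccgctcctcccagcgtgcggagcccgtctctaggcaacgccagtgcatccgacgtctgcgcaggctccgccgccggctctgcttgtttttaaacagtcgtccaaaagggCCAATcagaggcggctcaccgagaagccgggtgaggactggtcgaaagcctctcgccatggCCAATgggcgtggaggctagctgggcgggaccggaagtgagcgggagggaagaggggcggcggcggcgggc
Top2a carries 6 copies of CCAAT and 2 of TTTGAA, Cdk1 carries 3 and 2, and Cenpf carries 2 copies of CCAAT and none of TTTGAA. These letters describe the windows and are no measure of binding.

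Among other cell cycle genes a smaller share of those tested was called, though most log2 differences were negative. Differences between these lists were not tested. Of 15 tested S phase genes, which replicate DNA, 3 fell, namely Rrm2, a ribonucleotide reductase subunit (log2 difference -1.97), Hells, a chromatin remodeller (-1.78), and Mcm2, a helicase subunit (-1.0), and the median was -0.69. All 4 P1 libraries lay below all E16 libraries for 11 of the 15, against 10% over all genes. Ccnd1, the D-type cyclin that starts the cycle, was 129, 102 and 120.3 CPM at E16 and 34.2, 32.3, 25.9 and 31.8 CPM at P1 (log2 difference -1.89, SE 0.20, limma adjusted p = 0.00083). Its levels hardly differed within a stage. Ccnd2 fell too (log2 difference -2.22), but was under the filter once the Oc90-rich cells described below were left out. Cdkn2d, which encodes the cyclin-dependent kinase inhibitor p19Ink4d that keeps HCs out of the cycle, rose from 28.7, 32.1 and 26.2 CPM to 50.4, 47.0, 55.3 and 60.6 CPM (log2 difference 0.85, SE 0.21, limma adjusted p = 0.03). With the HC marker-rich cells described below left out, Cdkn2d was at -0.08 (limma adjusted p = 0.89). Among 20 chromatin genes of dividing cells, 6 fell and none rose, with a median of -0.64. They were Smc2 and Smc4, condensin subunits, Hmgb1, Tmpo, Ezh2 and Stmn1. Cks2, a cyclin-dependent kinase subunit, fell from 81.4, 73.8 and 84.8 CPM to 15.7, 20.8, 10.5 and 17.2 CPM (log2 difference -2.28, SE 0.25, limma adjusted p = 0.00088).

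Cells rich in transcripts of the cell cycle were counted as well. After each cell was thinned to 1500 UMIs, cells with UMIs of at least 3 S, G2 or M phase genes made up 7.42% ± 0.153 (SD, n = 3) of E16 cells and 2.93% ± 1.33 (SD, n = 4) of P1 cells, with no overlap. With 2 genes required the stages overlapped, since P1 replicate 4 had 22.5% against 18.5% to 22.7% in the E16 libraries. With these cells left out of every library, the 7 G2 and M phase genes that had fallen dropped under the filter, as did Rrm2. The cells had been selected by UMIs of these same lists, so that this drop follows from the selection. The lists also hold Hells and Mcm2, whose values below are affected by it. Hells (log2 difference -1.49), Smc2 (-1.17), Ccnd1 (-1.79), Hmga2 (-2.55) and Cks2 (-1.72) still passed the test. Hmgb1 (-1.28) and Stmn1 (-1.14) did too. Mcm2 was then at -0.70 (limma adjusted p = 0.15), Smc4 at -0.63 (0.18), Tmpo at -0.59 (0.12) and Ezh2 at -0.72 (0.074), and these 4 lost the call.

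Several matrix genes of the tectorial membrane rose. Of 15 tectorial membrane genes, 12 were tested, 6 rose and none fell, with a median log2 difference of 0.80. The summed level was 4491, 4984 and 5981 CPM at E16 and 11231, 11209, 11022 and 11194 CPM at P1, nearly the same in the 4 P1 libraries. At E14 it was 3953 and 3692 CPM, and at P7 16080 and 14630 CPM. Tecta and Tectb encode the tectorins that form its striated-sheet matrix. Tecta was 549, 506 and 510.1 CPM at E16 and 914, 1258, 1230.0 and 948 CPM at P1 (log2 difference 1.04, SE 0.19, limma adjusted p = 0.0076). Tectb was 361, 317 and 218 CPM at E16 and 2306, 826, 1059 and 660.5 CPM at P1 (log2 difference 1.87, SE 0.37, limma adjusted p = 0.012), with P1 replicate 1 above the other P1 libraries. The tectorins differed at later age, since P7 libraries had 137 and 139 CPM of Tecta and 9234 and 7226 CPM of Tectb.

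The other members that rose were collagens of the fibrils within the tectorial membrane. Col9a1 was 472, 694 and 767 CPM at E16 and 2758, 1949, 1796 and 2559 CPM at P1 (log2 difference 1.82, SE 0.23, limma adjusted p = 0.0017). Col9a3 (log2 difference 1.43), Col11a2 (1.18) and Col2a1 (0.87) rose with it, although Col2a1 lost its call in 14 of 24 other settings. Col9a2 was 926, 1179 and 1732 CPM at E16 and 1578, 2092, 1927 and 2006 CPM at P1, with 1 E16 library inside the P1 range (log2 difference 0.61, limma adjusted p = 0.14). Otog, which encodes otogelin, was not called either (log2 difference 0.33, limma adjusted p = 0.38).

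Some enzymes that modify and cross-link collagen rose. Of 14 tested members of this list, 6 rose and none fell, 8 had a positive log2 difference, and the median was 0.55. P4ha2, a subunit of prolyl 4-hydroxylase, was 10.4, 15.1 and 31.7 CPM at E16 and 128, 128, 118 and 149 CPM at P1 (log2 difference 2.85, SE 0.31, limma adjusted p = 0.00088). The P1 libraries lay close together, and the E14 levels were 10.2 and 10.7 CPM. Pcolce2, a procollagen proteinase enhancer (log2 difference 1.40), Fkbp10, a collagen chaperone (1.30), Plod3, a lysyl hydroxylase (0.96), Loxl1, a lysyl oxidase (0.94), and P3h1, a prolyl 3-hydroxylase (0.90), rose as well. Serpinh1, the collagen chaperone Hsp47, was 526, 589 and 771 CPM at E16 and 697, 783, 782 and 841 CPM at P1, and the stages overlapped (log2 difference 0.32, limma adjusted p = 0.35). Of 6 tested small leucine-rich proteoglycans, Podn rose, Ogn, which encodes osteoglycin, fell from 42.1, 41.7 and 32.3 CPM to 15.9, 10.6, 8.81 and 11.9 CPM (log2 difference -1.65, SE 0.26, limma adjusted p = 0.0039), and Epyc, which encodes epiphycan, was not called (log2 difference 0.45, limma adjusted p = 0.2). None of 11 tested basement membrane genes passed the test in either direction at the adjusted p of limma, and their median was -0.09. All P1 libraries lay below all E16 libraries for 4 of the 11 and above for 1, against 10% and 10.5% over all genes.

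Some chaperones and folding enzymes of the endoplasmic reticulum (ER), where secreted proteins mature, rose. Of 21 members, all tested, 5 rose and none fell, 17 had a positive log2 difference, and the median was 0.50. All P1 libraries lay above all E16 libraries for 8 members and below them for 1, against 10.5% and 10% over all genes. Their sum was 7432, 8088 and 10097 CPM at E16 and 15902, 13518, 12696 and 10133 CPM at P1, so that P1 replicate 4 lay next to E16 replicate 3. At E14 it was 10550.5 and 10549.6 CPM, above every E16 library, and at P7 10566 and 8973 CPM. Pdia6, a protein disulfide isomerase, was 649.9, 793 and 1078 CPM at E16 and 2249, 2060.0, 1819 and 1516 CPM at P1 (log2 difference 1.20, SE 0.22, limma adjusted p = 0.0087). Dnajc3, a cochaperone that also restrains the kinases of the unfolded protein response, was 79.2, 77.2 and 107 CPM at E16 and 185, 221, 236 and 189 CPM at P1 (log2 difference 1.24, SE 0.20, limma adjusted p = 0.0045). The other 3 were Pdia3 (log2 difference 1.03) and the translocon-associated Ssr2 (0.90) and Ssr4 (0.81). These 3 lost their calls among cells of 1500 to 4000 UMIs (limma adjusted p of 0.066 to 0.076), where their log2 differences were 0.92, 0.75 and 0.74. Pdia5, a disulfide isomerase named among the largest rises, was 15.7, 28.3 and 41.9 CPM at E16 and 139, 124, 109.9 and 143 CPM at P1 (log2 difference 2.23, SE 0.29, limma adjusted p = 0.0017). Hspa5, which encodes BiP, a common marker of ER stress, was 617, 782 and 1326 CPM at E16 and 1587, 1436, 1092 and 696 CPM at P1, with overlap (log2 difference 0.41, limma adjusted p = 0.48).

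The ER stress response element, searched as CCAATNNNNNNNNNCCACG on both strands, was found in 7 of 18 genes of this list with a promoter window and in 35 of 27025 genes (0.13%). These were Calr, Canx, Creld2, Dnajc3, Hsp90b1, Hspa5 and Pdia6. Of the 7, Dnajc3 and Pdia6 rose, and their windows are shown with that of Hspa5, which was not called. The element is in capitals, and its first 5 bases are a CCAAT box, so that this search overlaps the one above. The windows lie on chr14:118937682-118937931 for Dnajc3, chr12:17266339-17266588 for Pdia6 and chr2:34771840-34772089 for Hspa5, all plus strand (RefSeq, GRCm38.p6). For Dnajc3 the bases just after the window were not found in the first part of a GENCODE transcript of the gene, as they were for the windows of the other genes shown, so its start may differ between annotations.
Dnajc3: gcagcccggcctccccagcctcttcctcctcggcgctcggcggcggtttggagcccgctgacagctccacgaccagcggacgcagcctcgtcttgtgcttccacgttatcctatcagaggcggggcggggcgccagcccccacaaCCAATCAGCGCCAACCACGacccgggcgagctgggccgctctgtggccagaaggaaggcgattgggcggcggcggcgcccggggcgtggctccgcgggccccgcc
Pdia6: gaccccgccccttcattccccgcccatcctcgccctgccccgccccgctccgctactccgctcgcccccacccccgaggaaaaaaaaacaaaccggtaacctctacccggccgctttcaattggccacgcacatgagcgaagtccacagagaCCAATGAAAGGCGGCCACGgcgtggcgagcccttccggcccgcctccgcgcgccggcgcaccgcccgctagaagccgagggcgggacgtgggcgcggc
Hspa5: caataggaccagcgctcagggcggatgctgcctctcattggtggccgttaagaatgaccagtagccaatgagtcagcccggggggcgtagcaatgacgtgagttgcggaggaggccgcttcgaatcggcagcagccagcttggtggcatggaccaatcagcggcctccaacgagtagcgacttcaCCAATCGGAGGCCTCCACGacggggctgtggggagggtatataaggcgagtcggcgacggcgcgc
The element stands in the gene's own direction in each of the windows. It is shared by members that rose and a member that did not pass the test.

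**Figure D2:**
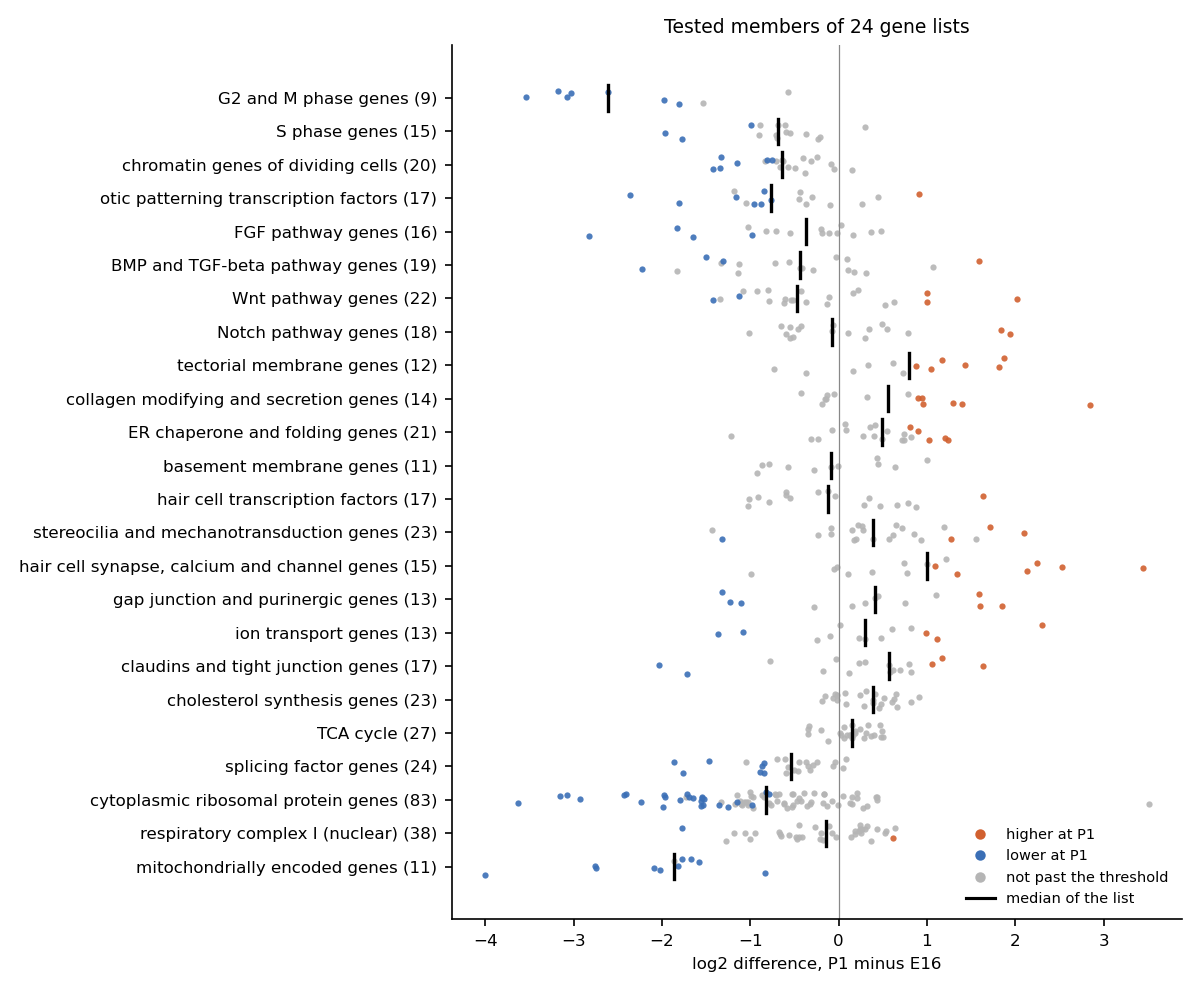
Log2 difference (P1 minus E16) of each tested member of 24 gene lists, with 1 point for each gene, coloured by whether it was higher or lower at P1 at a limma adjusted p of 0.05, a bar at the median of the list and the number tested in brackets. The tectorial membrane list has its median at 0.80 with 6 genes higher, and the G2 and M phase list at -2.61 with 7 genes lower.

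HC genes are given by role, and differences between these groups were not tested. Of 17 tested transcription factors and early HC genes, 1 rose and none fell, with a median of -0.12. That was Gfi1, a repressor needed for HC survival, at 6.46, 5.0 and 3.14 CPM at E16 and 8.85, 18.4, 18.0 and 26.3 CPM at P1 (log2 difference 1.64, SE 0.37, limma adjusted p = 0.021). Pou4f3 was 70.0 to 164 CPM at E16 and 76.9 to 144 CPM at P1, and Atoh1, the gene that starts HC fate, was 58.5 to 96.2 CPM and 27.1 to 62.3 CPM, both with overlapping libraries (limma adjusted p = 0.95 and 0.27). Among cells of 1500 to 4000 UMIs, Atoh1 was called lower (log2 difference -1.5, limma adjusted p = 0.027). Of 15 tested HC synapse, calcium and channel genes, 6 rose and none fell, with a median of 1.00. All P1 libraries were above all E16 libraries for 8 of them, against 10.5% over all genes. Of 23 tested genes of stereocilia and mechanotransduction, 3 rose and 1 fell, with a median of 0.39.

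Calb2, which encodes the calcium buffer calretinin, was 6.73, 6.71 and 5.18 CPM at E16 and 116, 72.6, 59.7 and 70.7 CPM at P1 (log2 difference 3.45, SE 0.27, limma adjusted p = 0.00011). The level was 0.820 and 1.34 CPM at E14 and 194 and 173 CPM at P7, each age above the one before it. Otof, whose product otoferlin is the calcium sensor of transmitter release in HCs, was 13.8, 7.45 and 3.39 CPM at E16 and 29.2, 42.6, 49.5 and 33.7 CPM at P1 (log2 difference 2.25, SE 0.38, limma adjusted p = 0.0054). Kcnj13, an inward rectifier potassium channel, was 1.11, 1.45 and 6.04 CPM at E16 and 17.3, 12.7, 17.6 and 27.8 CPM at P1 (log2 difference 2.53, SE 0.43, limma adjusted p = 0.0054). Cabp2, a calcium-binding regulator of HC calcium channels (log2 difference 2.13), Rab3a, a synaptic vesicle GTPase (1.34), and Chrna9, a subunit of the efferent acetylcholine receptor (1.09), rose too. In the stereocilia list, Fscn2, an actin cross-linker, was 6.54, 5.64 and 3.96 CPM at E16 and 22.7, 30.9, 33.3 and 19.5 CPM at P1 (log2 difference 2.1, SE 0.28, limma adjusted p = 0.0018). Tomt, required for transport of mechanotransduction channel proteins (log2 difference 1.71), and Cib2, a subunit of the transduction complex (1.28), rose with it. Pcdh15, a tip-link cadherin, fell from 44.5, 35.3 and 20.3 CPM to 9.18, 16.0, 17.0 and 8.44 CPM (log2 difference -1.32, SE 0.34, limma adjusted p = 0.04).

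A level over the whole tissue also holds the number of HCs in a library. Cells with UMIs of at least 3 of the 10 HC markers, after thinning to 1500 UMIs, made up 14.7%, 9.88% and 4.02% of the E16 libraries and 6.27%, 7.39%, 9.02% and 8.0% of the P1 libraries, and the stages overlapped. The mean share was 11.6% at E16 and 10.3% at P1 with 2 markers required, and 8.80% and 7.45% with 4. With these cells left out, Calb2, Otof, Fscn2, Gfi1, Tomt, Cabp2 and Chrna9 fell under the filter, Rab3a was at a log2 difference of 0.74 (limma adjusted p = 0.12), and Stmn2 was at 2.65 (limma adjusted p = 0.004). Kcnj13 (log2 difference 2.05, limma adjusted p = 0.039), Cib2 (1.04, 0.012) and Pcdh15 (-1.44, 0.012) kept their calls without them. Gfi1 and Cib2 are among the 10 markers that selected these cells, so their results here follow in part from the selection. In all other cells the mean levels of Calb2, Otof, Fscn2, Tomt, Cabp2 and Chrna9 were under 5 CPM at both stages. Their drop under the filter thus follows from leaving out the marker-rich cells, and cannot tell the number of HCs from the level per HC. The median of the synapse, calcium and channel list was then 0.16, over 5 genes still tested. Among cells of 1500 to 4000 UMIs it was 0.32, that of the stereocilia list 0.18 and that of the transcription factors -0.68. That range of UMIs kept 70.1% to 87% of the cells of an E16 library and 12.4% to 56.3% of a P1 library, with medians of 2172 to 2663 UMIs at E16 and 2777 to 3264 at P1, so that the depths came closer without being equal. The mix of cells changed with it, since HC marker-rich cells were 2.36% to 17.1% of the kept E16 cells and 2.6% to 5.45% of the kept P1 cells, and the median of the 10 HC markers went from 0.52 to -0.39. In that range Calb2 stayed past the test (log2 difference 2.83, limma adjusted p = 0.0024), while Otof was at 1.88 (limma adjusted p = 0.098), Fscn2 at 1.48 (0.087), Tomt at 0.43 (0.76) and Gfi1 at 0.72 (0.56). Chrna9 (0.36, limma adjusted p = 0.77), Cib2 (0.73, 0.4), Rab3a (0.93, 0.082), Pcdh15 (-1.21, 0.14) and Ppp1r27 (1.37, 0.3) lost their calls there too, Cabp2 was under the filter, and Kcnj13 kept its call (3.16, 0.0074).

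Levels within the marker-rich cells are given as a description, with no test, because those cells were selected by HC genes. Over 64 HC genes that are not among the 10 markers, all P1 libraries lay above all E16 libraries for 32, below for 5, and overlapped for 27. In the same cells the P1 libraries lay above for 15.9% and below for 9.84% of 10840 genes that averaged 5 CPM or more there, as 61 of the 64 did. Calb2 was 61.6 ± 23.8 CPM (SD, n = 3) at E16 and 1044 ± 479.8 CPM (SD, n = 4) at P1 in these cells, against 1.29 and 4.02 CPM in all other cells. Otof was 84.5, 69.8 and 80.4 CPM at E16 and 427, 569, 543 and 408 CPM at P1. Rab3a was 22.5, 25.2 and 26.1 CPM at E16 and 198, 207, 202 and 221 CPM at P1. For Otof and Rab3a the E16 libraries lay close together and far under every P1 library. Fscn2 was 35.4 ± 2.24 CPM (SD, n = 3) at E16 and 309.7 ± 70.5 CPM (SD, n = 4) at P1. Ocm, which encodes oncomodulin, the calcium buffer of outer HCs, was 0, 3.53 and 9.83 CPM at E16 and 102, 54.3, 33.7 and 93.3 CPM at P1. Strc, which encodes stereocilin, a protein of the links between stereocilia, was 11 ± 1.74 CPM (SD, n = 3) at E16 and 56.8 ± 8.96 CPM (SD, n = 4) at P1. Ppp1r27, a phosphatase 1 regulatory subunit gene found among the largest rises of the whole tissue, was 171 ± 36.4 CPM (SD, n = 3) at E16 and 957 ± 120.1 CPM (SD, n = 4) at P1, against 0.858 and 1.99 CPM in other cells.

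The 5 genes that were lower in every P1 library within these cells were Grxcr1, Pcdh15, Myo3a, Snap25 and Slc17a8. Grxcr1, a gene of bundle growth, was 932, 851 and 667 CPM at E16 and 533, 455, 483 and 85.5 CPM at P1. Pcdh15 was 165, 125 and 107 CPM at E16 and 45.9, 94.3, 104 and 44.0 CPM at P1. Stmn2 was low in HC marker-rich cells at both ages (3.91 and 15.8 CPM on average) and was 25.7 CPM at E16 and 189 CPM at P1 in all other cells.

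**Figure D3:**
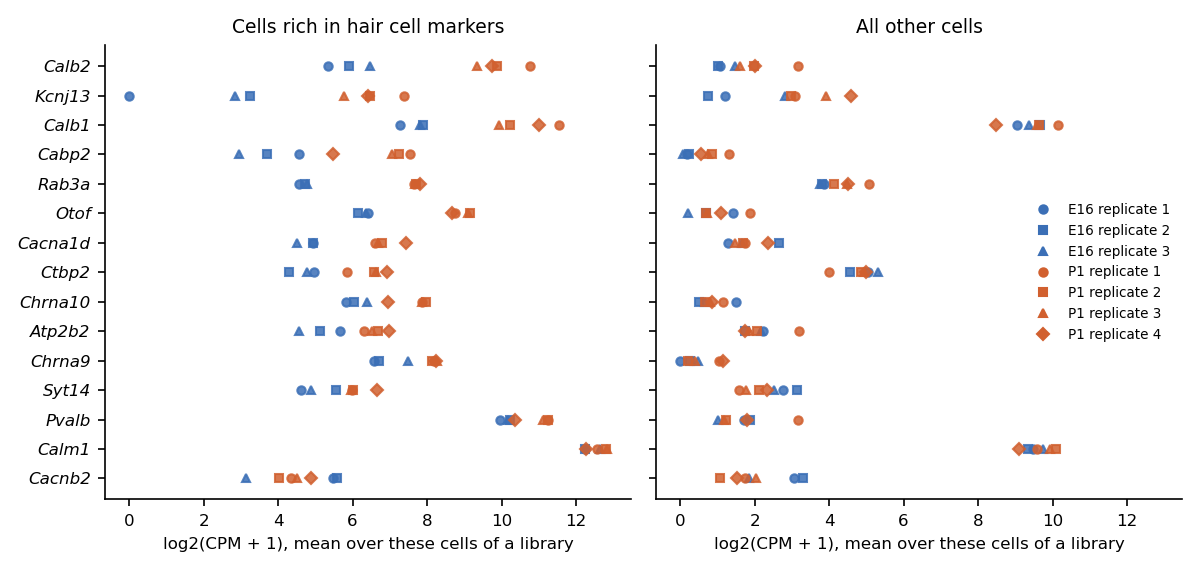
Levels of HC synapse, calcium and channel genes within cells that carry UMIs of at least 3 of 10 HC markers (left) and in all other cells (right), with 1 point for each library (3 at E16, 4 at P1) on an axis of log2(CPM + 1). Otof runs from 69.8 to 84.5 CPM at E16 and from 408 to 569 CPM at P1 in the marker-rich cells.

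Among 22 genes of SC subtypes, all tested, 3 rose and 2 fell, with a median of -0.09. The Notch target Heyl rose from 6.43, 9.81 and 20.5 CPM to 23.7, 42.8, 41.1 and 97.5 CPM (log2 difference 1.94, SE 0.46, limma adjusted p = 0.028). Hes5, a Notch target of SCs, was 33.1, 40.8 and 144 CPM at E16 and 174, 220.1, 142 and 366 CPM at P1 (log2 difference 1.84, SE 0.46, limma adjusted p = 0.037), with E16 replicate 3 just above the lowest P1 library. These were the 2 of 18 tested Notch pathway genes that passed, and none fell, while the median of the pathway was -0.07. Hes1 was 170.2 and 176 CPM in E16 replicates 1 and 2 and 2476 CPM in E16 replicate 3, against 313 to 1206 CPM at P1 (limma adjusted p = 0.6). Prss23 rose (log2 difference 1.00), and Rorb fell (-1.34). Lgr5, the R-spondin receptor that marks SCs able to proliferate, fell from 65.2, 51.7 and 31.7 CPM to 19.5, 22.4, 23.5 and 19.9 CPM (log2 difference -1.12, SE 0.26, limma adjusted p = 0.027).

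Signalling genes moved in both directions. Of 16 tested FGF pathway genes, 4 fell and none rose, with a median of -0.37. Fgfr2, the epithelial FGF receptor, was 15.9, 16.3 and 16.3 CPM at E16 and 2.38, 0.400, 0.707 and 3.19 CPM at P1 (log2 difference -2.83, SE 0.40, limma adjusted p = 0.0025). The ligands Fgf9 (log2 difference -1.83) and Fgf10 (-0.99) and the feedback inhibitor Spry2 (-1.65) fell as well. Spry2 was at -1.58 (limma adjusted p = 0.052) without the Oc90-rich cells described below, and at -0.88 (0.29) among cells of 1500 to 4000 UMIs, where Fgf9 (-1.73, 0.065) and Fgf10 (-1.03, 0.079) lost the call too and Fgfr2 kept it (-2.58, 0.045). Of 19 tested BMP and TGF-beta genes, 3 fell and 1 rose, with a median of -0.44. Bmp4, the ligand of the lateral duct, was 46.0, 35.8 and 104 CPM at E16 and 32.4, 6.52, 5.78 and 11.5 CPM at P1 (log2 difference -2.23, SE 0.53, limma adjusted p = 0.028). The closest libraries, 35.8 and 32.4 CPM, nearly met. Bmp6, another ligand, rose from 3.20, 2.85 and 1.70 CPM to 8.64, 10.1, 12.1 and 8.24 CPM (log2 difference 1.6, SE 0.29, limma adjusted p = 0.0086), and was 95.6 and 90.0 CPM at P7. Smad7, an inhibitor within the pathway (log2 difference -1.5), and Tgfbr1, a type I receptor (-1.31), fell.

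Of 22 tested Wnt pathway genes, 3 rose and 2 fell, with a median of -0.47. The 3 that rose are secreted proteins of inhibitor families. Dkk3 was 65.7, 90.4 and 99.3 CPM at E16 and 228, 348, 349.9 and 497 CPM at P1 (log2 difference 2.02, SE 0.26, limma adjusted p = 0.0017), and Sfrp2 and Frzb each had a log2 difference of 1.00, and Frzb lost its call in 14 of 23 other settings. The 2 that fell were Lgr5 and Rspo2, an R-spondin that enhances Wnt signalling (log2 difference -1.42). None of 10 tested IGF pathway genes passed the limma test in either direction, with a median of -0.42. In the retinoid list of 11 tested genes, Dhrs3, a retinaldehyde reductase, rose (log2 difference 1.5) and Fabp5, a fatty acid and retinoic acid carrier, fell (-1.52). Of 8 tested thyroid hormone genes, 3 rose and none fell, with a median of 0.57. Klf9, a transcription factor induced by thyroid hormone and by glucocorticoids, was 17.9, 22.1 and 35.3 CPM at E16 and 47.3, 84.2, 72.0 and 74.7 CPM at P1 (log2 difference 1.46, SE 0.28, limma adjusted p = 0.011), and was 379 and 421 CPM at P7. The membrane transporter Slc16a10 (log2 difference 1.33) rose as well.

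Several transcription factors that pattern the otic vesicle fell. Of 17 tested, 7 fell and 1 rose, with a median of -0.76. Sox11 was 419, 354 and 303 CPM at E16 and 63.7, 116, 102 and 136 CPM at P1 (log2 difference -1.81, SE 0.26, limma adjusted p = 0.0027). Lmx1a, a factor of the nonsensory and roof epithelium, fell from 16.0, 14.4 and 18.2 CPM to 3.41, 1.48, 1.33 and 3.79 CPM (log2 difference -2.37, SE 0.34, limma adjusted p = 0.0027). Eya4 (log2 difference -1.16), Sox21 (-0.96), Sox10 (-0.84) and Gata3 (-0.76) also fell. Isl1 rose (log2 difference 0.91). Cells with at least 5000 CPM of Oc90, a roof and otoconial gene, were 5.39% ± 2.01 (SD, n = 3) of E16 cells and 1.00% ± 0.621 (SD, n = 4) of P1 cells, and Lmx1a moved in the same direction as that share. Without those cells the log2 difference of Lmx1a was -2.54 (limma adjusted p = 0.0015). Of 13 tested imprinted genes of fetal growth, Peg3 (log2 difference -1.08) and Grb10 (-0.85) fell, none rose, and the median was -0.19.

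Genes of the epithelial barrier and of ion recycling moved in both directions. Of 13 tested gap junction and purinergic genes, 3 rose and 3 fell, with a median of 0.41. Gjb6, which encodes connexin 30, was 40.8, 29.9 and 46.6 CPM at E16 and 104, 79.2, 114 and 205 CPM at P1 (log2 difference 1.59, SE 0.31, limma adjusted p = 0.01). Gjb2, its partner connexin 26, was 454, 511 and 682 CPM at E16 and 701, 699, 761 and 799.8 CPM at P1, with no overlap and a log2 difference of 0.45 (limma adjusted p = 0.19). The ATP receptors P2ry1 (log2 difference 1.85) and P2rx2 (1.6), through which ATP acts in the developing cochlea, rose, while Gja1, connexin 43 (-1.32), P2rx3 (-1.23) and Itpr1, the calcium store receptor (-1.11), fell. Without Oc90-rich cells Itpr1 was at -0.51 (limma adjusted p = 0.27), and without HC marker-rich cells P2rx3 was under the filter. P2ry1 was 3.52, 3.60 and 3.79 CPM at E16 and 23.9, 9.27, 11.1 and 24.4 CPM at P1, and 56.1 and 49.6 CPM at P7.

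Of 13 tested ion transport genes, 3 rose and 2 fell. Their sum was 1358, 1491 and 1534 CPM at E16 and 2268, 2245, 2229 and 2473 CPM at P1, and was 1578 and 1460.1 CPM at E14 and 3637 and 3101 CPM at P7. The sodium pump subunit Atp1b1 rose (log2 difference 1.12). Car14, a carbonic anhydrase, was 2.64, 3.63 and 3.84 CPM at E16 and 36.2, 17.2, 14.1 and 19.7 CPM at P1 (log2 difference 2.31, SE 0.33, limma adjusted p = 0.0027), while the related Car13 (-1.37) and Car12 (-1.09) fell. Without Oc90-rich cells Car12 was at -0.97 and lost the call (limma adjusted p = 0.07). Of 17 tested tight junction genes, 3 rose and 2 fell, with a median of 0.57. Cldn9 was 527, 584 and 716 CPM at E16 and 1218, 1384, 1273 and 1585 CPM at P1 (log2 difference 1.17, SE 0.19, limma adjusted p = 0.0045). Cldn14, a claudin of HCs and SCs (log2 difference 1.63), and Ocln, occludin (1.06), rose, while Cldn11 (-2.04) and Tjp1, which encodes ZO-1 (-1.72), fell. Without HC marker-rich cells Cldn14 was at 0.51 (limma adjusted p = 0.27), and at 0.94 (0.26) among cells of 1500 to 4000 UMIs. Cldn11 was under the filter without Oc90-rich cells. Epcam, an epithelial adhesion molecule, rose (log2 difference 0.87) and Cdh3, P-cadherin, fell (-1.38), the 2 calls among 14 adhesion genes tested. None of 7 tested keratin genes passed the limma test. Krt8 was 277 and 249 CPM in E16 replicates 1 and 2, 880.3 CPM in E16 replicate 3, and 401 to 1608 CPM at P1 (limma adjusted p = 0.17). In the list of 18 tested tubulin and cytoskeleton genes, Stmn2 and Tubb2a (log2 difference 1.19) rose, and Stmn1 (-1.33) and Tmsb10, an actin-sequestering thymosin (-1.68), fell.

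**Figure D4:**
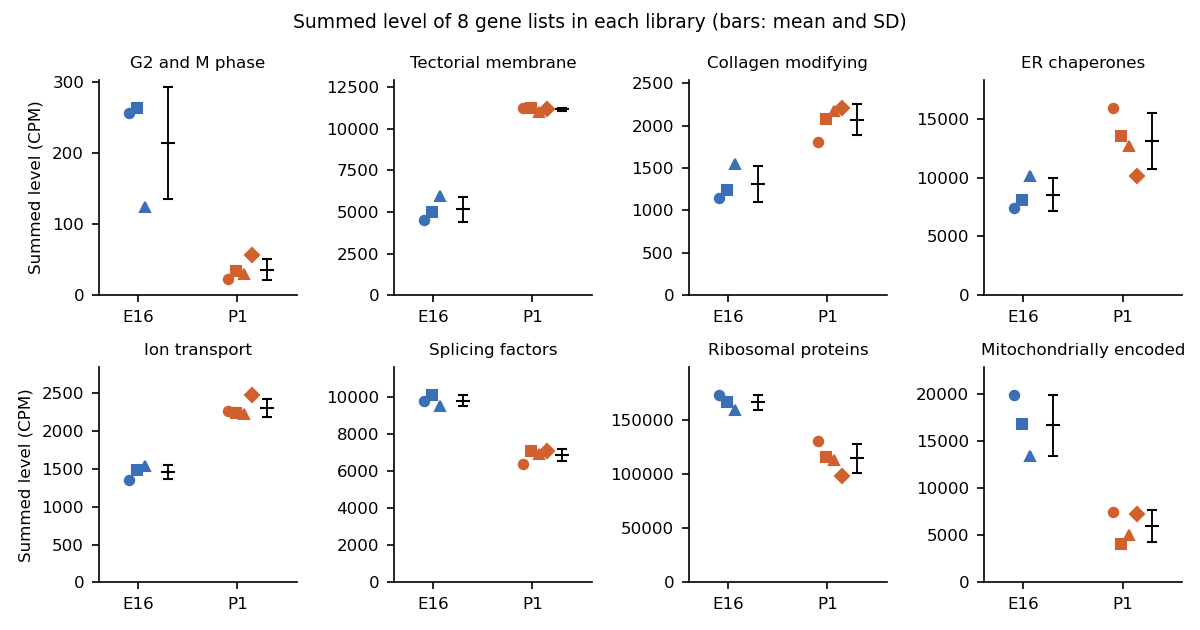
Summed level of the members of 8 gene lists, in CPM, with 1 point for each library of E16 (3) and P1 (4), the mean and SD beside them, and axes that start at 0. The tectorial membrane sum lies at 4491 to 5981 CPM at E16 and 11022 to 11231 CPM at P1, and the sum of mitochondrially encoded genes lies at 13428 to 19870 CPM at E16 and 4118 to 7496 CPM at P1.

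The summed levels of ribosomal protein and mitochondrially encoded transcripts were lower in every P1 library than in any E16 library. Of 83 tested cytoplasmic ribosomal protein genes, 26 fell and none rose, with a median of -0.83. The summed level was 172668, 166455 and 159058 CPM at E16 and 130765, 115422, 112905 and 98569 CPM at P1. In the other ages, whose tables were normalized on their own, it was 96784 and 101337 CPM at E14 and 41302 and 56907 CPM at P7, so that the E16 libraries were the highest of the 4 ages. Rpl39 was 2417, 2323 and 1726 CPM at E16 and 458, 108, 115 and 153 CPM at P1 (log2 difference -3.63, SE 0.42, limma adjusted p = 0.001), and 69.3 and 115 CPM at E14. Rps28 (log2 difference -3.15), Rpl38 (-3.07) and Rps29 (-2.93) fell next most. Rps14 was 6935 to 7812 CPM at E16 and 6262 to 7244 CPM at P1 (log2 difference -0.13, limma adjusted p = 0.69). Ribosomal protein genes have many near-identical processed copies, so their levels may depend on how such reads were assigned, which was not tested. Rps3a3, one such copy, ranged from 28.0 to 1288 CPM at E16 and from 666 to 3216 CPM at P1 (limma adjusted p = 0.078).

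Of 11 tested mitochondrially encoded genes, 10 fell and none rose, with a median of -1.87. Their sum was 19870, 16781 and 13428 CPM at E16 and 7496, 4118, 4988 and 7279 CPM at P1, and was 6254 and 8583 CPM at E14 and 3661 and 8931 CPM at P7. mt-Cytb was 6133, 5316 and 4297 CPM at E16 and 2362, 1116, 1345 and 2596 CPM at P1 (log2 difference -1.58, SE 0.30, limma adjusted p = 0.0099). As for the ribosomal genes, E16 stood apart from every other age. Nuclear genes of the respiratory chain had small list medians, with members that moved both ways outside complex II. All P1 libraries lay above all E16 libraries for 7 and below them for 4 of 38 complex I genes. In complex III these were 3 and 3 of 9, in complex IV 2 and 7 of 15 and in the ATP synthase 2 and 3 of 16. Over all genes the shares were 10.5% and 10%. The median log2 difference was -0.14 for complex I (38 tested, 1 rose, 1 fell), 0.28 for complex II (4 tested, no call by limma), -0.21 for complex III (9 tested, 1 fell), -0.29 for complex IV (15 tested, 2 fell) and -0.10 for the ATP synthase (16 tested, 2 fell). The members that fell were Ndufa3 (log2 difference -1.77), Uqcrb (-2.46), Cox7c (-1.48), Cox6c (-0.99), Atp5e (-1.29) and Atp5j2 (-0.94), each a small subunit. Atp5k, described above, is not on the ATP synthase list, which follows a published pathway. Ndufa8 rose (0.61, limma adjusted p = 0.0498), and lost its call in 18 of 24 other settings.

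Calls were unevenly spread over transcript length. Of 20 tested protein-coding genes whose longest annotated transcript is under 500 bases, 8 fell and none rose, with a median of -1.48. From 500 to under 1000 bases 40 of 409 fell (9.78%) and 15 rose, and from 1000 to under 2000 bases 43 of 1673 fell and 114 rose. In the largest bin, from 2000 to under 4000 bases, 80 of 4048 fell and 160 rose. Falls also outnumbered rises among long transcripts, since from 4000 to under 8000 bases 103 fell and 64 rose (median -0.15), and from 8000 bases 32 of 621 fell (5.15%) and 8 rose (median -0.34). Without ribosomal protein genes, 4 of 15 genes under 500 bases fell, with a median of -1.37, a bin of fewer than 20 genes. The median difference of those 15 from the E16 mean was -0.27 for P1 replicate 1, -1.41 for replicate 2, -1.30 for replicate 3 and -2.40 for replicate 4. What part length, library preparation and stage have in these falls was not tested.

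**Figure D5:**
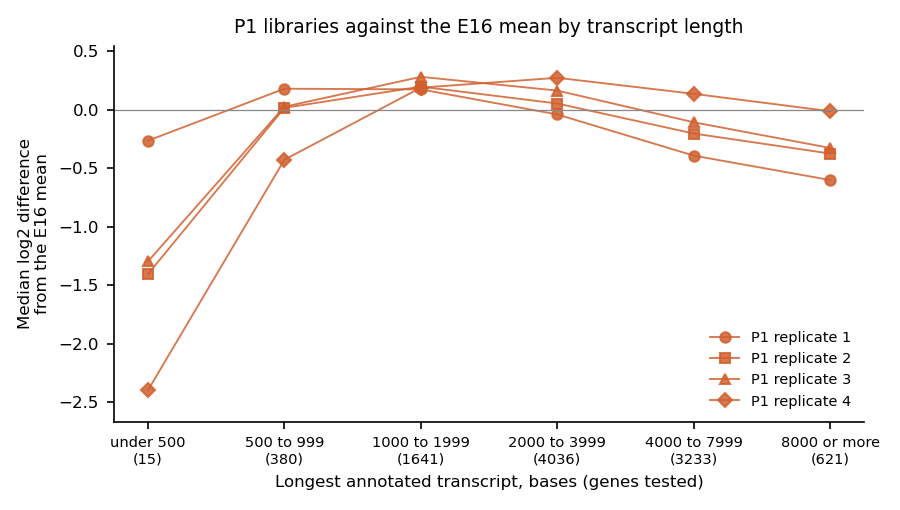
Median log2 difference (P1 minus E16) of tested protein-coding genes in bins of the longest annotated transcript, in bases, without ribosomal protein genes. Each line is 1 of the 4 P1 libraries against the E16 mean. Under 500 bases (15 genes) the P1 libraries lie at -0.27, -1.41, -1.30 and -2.40, and from 1000 to under 2000 bases at 0.17 to 0.28.

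Some RNA processing genes fell. Of 24 splicing factor genes, 7 fell and none rose, with a median of -0.54, and the sum was 9472 to 10073 CPM at E16 and 6352 to 7056 CPM at P1, with 11268 and 11592 CPM at E14 and 7014 and 6602 CPM at P7. The largest falls were the small Sm proteins Snrpg (log2 difference -1.87), Snrpf (-1.76) and Snrpe (-1.46), and Hnrnpa1, Hnrnpc, Hnrnpu and Srsf10 fell by 0.84 to 0.89. Of 22 translation factor genes 1 rose, Eif3f (log2 difference 0.69), and none fell, with a median of -0.04. None of 19 tested ribosome biogenesis genes passed the limma test, with a median of -0.27.

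Calls among metabolic genes are given by list, against 3.38% higher and 3.73% lower over all tested genes. Of 22 tested glycolysis genes, 2 fell and 1 rose, with a median of -0.21. Hk2, an inducible hexokinase, was 15.7, 12.9 and 39.7 CPM at E16 and 3.43, 2.69, 1.44 and 4.57 CPM at P1 (log2 difference -2.45, SE 0.42, limma adjusted p = 0.0055). Ldha, lactate dehydrogenase A, fell from 577, 642 and 1029 CPM to 293, 427, 471 and 367 CPM (log2 difference -0.92, SE 0.25, limma adjusted p = 0.047). Pgam2, the muscle-type phosphoglycerate mutase, rose from 3.29, 3.12 and 5.48 CPM to 26.0, 33.4, 42.9 and 13.4 CPM (log2 difference 2.51, SE 0.38, limma adjusted p = 0.0033), and was under the filter without HC marker-rich cells. None of 27 tested tricarboxylic acid cycle genes passed the limma test, 22 had a positive log2 difference, and the median was 0.16. None of 8 tested glycogen genes (median 0.33), 6 serine and glycine genes (-0.07) and 46 nucleotide metabolism genes (0.09) was called by limma. Of 62 tested amino acid metabolism genes, 5 rose and none fell, namely P4ha2 and Plod3, Gad1, Oat and Sat1. All P1 libraries lay above all E16 libraries for 13 of the 62 and below for 2, against 10.5% and 10% over all genes. Gad1, which makes GABA from glutamate, was 4.31, 6.67 and 7.70 CPM at E16 and 37.2, 34.4, 31.3 and 27.6 CPM at P1 (log2 difference 2.24, SE 0.26, limma adjusted p = 0.001), and 7.79 to 9.56 CPM at P7. Oat, ornithine aminotransferase, and Sat1, a polyamine acetyltransferase, had log2 differences of 1.30 and 1.34. Of 23 cholesterol synthesis genes none was called by limma, although 17 had a positive log2 difference and the median was 0.39.

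The calls in the remaining lists stand against the same shares, 3.38% higher and 3.73% lower over all tested genes. Of 23 tested antioxidant and metallothionein genes, Prdx4, an ER peroxiredoxin (log2 difference 1.26), and Gstm1 (1.12) rose. Of 23 tested immediate early and dissociation stress genes, Nr4a1 (1.13) and Junb (0.73) rose, and the median was 0.33. Of 13 tested genes of MHC class I and interferon response, Tapbp (log2 difference 1.46) and H2-D1 (1.19) rose. Anxa1 fell (-2.52), the 1 call among 15 S100 and annexin genes, and was under the filter without Oc90-rich cells. Sparcl1, a secreted matricellular protein kept in the roof list, rose from 341, 398 and 447 CPM to 1028, 1583, 1447 and 1488 CPM (log2 difference 1.80, SE 0.20, limma adjusted p = 0.001), while Oc90 itself was 955 to 3176 CPM at E16 and 162 to 1019 CPM at P1, with overlap (limma adjusted p = 0.085).

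Apart from haemoglobin genes in E16 replicate 2, summed markers used for cells outside the epithelium were low at both ages. The glia and neuron lists also hold genes of the duct, so their sums do not measure such cells alone. Sox10, on the glia list, is also on the otic patterning list. Snap25, on the neuron list, is also an HC synapse gene. At E16 its mean was 61.8 CPM in HC marker-rich cells and 0.776 CPM in all other cells. Summed levels were at most 3.28 CPM for 8 macrophage markers and at most 7.65 CPM for 6 melanocyte markers. They were 43.4 to 55.6 CPM at E16 and 31.4 to 63.1 CPM at P1 for 9 mesenchyme markers, 34.5 to 66.5 CPM and 8.21 to 51.2 CPM for 7 endothelium markers, and 115 to 133 CPM and 66.3 to 84.8 CPM for 8 glia markers. Neuron markers summed to 42.5 to 82.0 CPM at E16 and 80.6 to 151 CPM at P1. Among them Syt1, a synaptic vesicle calcium sensor, rose (log2 difference 2.0), and was at 1.94 (limma adjusted p = 0.0043) without HC marker-rich cells. The haemoglobin list had a sum of 947 CPM in E16 replicate 2, and the other 6 libraries lay between 0.955 and 63.2 CPM, and Hbb-bt fell (log2 difference -3.59). The part of these cells in the differences above was not tested.

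Among the 153 called genes described here, 59 did not pass the limma test among cells of 1500 to 4000 UMIs. Beside those given above with their values, they were Anxa1, Car12, Ccnb1, Cdh3, Cdkn2d, Cldn11, Cox6c, Eif3f, Eya4, Ezh2, Frzb, Gata3, Grb10, Gstm1, H2-D1, Hells, Hes5, Hnrnpu, Isl1, Itpr1, Lgr5, Lmx1a, Ndufa8, Nusap1, Ocln, P2rx3, P3h1, Peg3, Pgam2, Plod3, Prdx4, Rorb, Rspo2, Slc16a10, Smc4, Sox10, Sox21, Srsf10, Tgfbr1, Tjp1, Tmpo, Toporsos and Tubb2a. A lost call does not by itself mean a smaller difference. Some listed genes kept a log2 difference near that of all cells, as did Tgfbr1 (-1.31), Ocln (1.05) and Nusap1 (-1.90). Others shrank, as did Cdkn2d (0.25) and Itpr1 (-0.54). Col2a1, Eif3f, Ezh2, Frzb, Hnrnpa1, Ldha, Ndufa8 and Tmpo, whose adjusted p lay between 0.04 and 0.05, lost the call in at least 12 of the 23 or 24 other settings that tested them.

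Genes with a row in only one of the tables could not be tested, because the other table gives no value for them. There were 2319 genes with a row at P1 alone. Mitochondrial, ribosomal protein, haemoglobin, Gm-numbered, Rik and some clone-named genes, Xist, Tsix and Y-linked genes were left out before ranking. The highest of the rest was Pkhd1l1, which encodes a stereocilia coat protein of HCs, at 7.04 ± 1.09 CPM (SD, n = 4) in 315 cells. It was followed by Prph2 at 2.95 CPM and by Otos, which encodes otospiralin, at 2.62 CPM. Of 817 genes with a row at E16 alone, with the same kinds of genes left out, none was above 1.32 CPM.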

How the data were processed

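Cochlear duct floor cells of wild type CD1 mice were captured with 10x Chromium, 3 libraries at E16 and 4 at P1. Per the submitters' processing notes the authors aligned reads to mm10 and counted UMIs with Cell Ranger 2.1.1, then filtered and normalized cells with Seurat 2.0. The deposited values are on a natural log scale, as ln(1 + x), where x is the UMIs of a gene scaled to a cell total of 10000. Per the methods, cells of few or very many genes and UMIs were removed, which narrows the spread of depth. UMIs recovered from the values were whole within 2% for 100% of values. Totals per library were 3828399 to 11797815 UMIs at E16 and 11829392 to 23523802 at P1, and each stage's table was normalized separately, cell by cell.

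Values were back-transformed, averaged over the cells of each library and multiplied by 100 to give CPM. Genes that averaged 5 CPM or more over the 7 libraries were tested with limma 3.58.1 in R 4.3.3 (mean trend, log2(CPM + 1), Benjamini-Hochberg adjustment, threshold 0.05). With 3 against 4 libraries an exact permutation test cannot go below p = 0.0571, so single values were tested only in the fit across all genes. On simulated data with 10946 genes, 97.9% of genes changed by a log2 of 1 and 100% of those changed by 2 were recovered, and 4.15% of calls were false. The simulated libraries held only counting noise and a small independent noise for each gene. They had no shift shared by the genes of a library, as the real ones do, so these rates do not carry over to the calls above. The libraries are separate collections of pooled animals, and p-values measure the spread between them.

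The genes of the largest changes were the 12 highest and 12 lowest log2 differences among called genes without overlap between stages and with at least 50 CPM in the higher stage, leaving out mitochondrial, ribosomal, haemoglobin and unnamed genes. From each list the 3 members of the highest mean and the 2 of the largest difference could be named, and of genes in 1 table only, the 10 highest. Other called members were named after their values were seen. The members and lists were chosen with earlier results of these data known. Alternatives were another pseudocount, filter, scaling or averaging, a replicate block, cells of 1500 to 4000 UMIs, marker-rich cells left out, and each library left out.

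Replicate numbers were not taken as pairs, because the deviations of same-numbered libraries from their stage means correlated at 0.037, -0.234 and -0.038. No doublets were called here, and the cells of over 3000 genes were left out as an alternative. Overlapping and antisense genes and near-identical copies may share reads. Some results are not reported here.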

Additional observations from a re-analysis of the deposited data

Results flagged for a closer look

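In 24 of 197 results whose 4 P1 libraries were compared, the highest or lowest library was far from the other 3 by Dixon's criterion, which sets its gap to the nearest library against the whole range. Chance flags about 1 in 20 groups, and the results share libraries. P1 replicate 1 was the one that stood apart in 16 of the 24 and P1 replicate 4 in 7.

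P1 replicate 1 was the highest for small ribosomal, splicing and respiratory genes. Its level was 307 CPM for Rpl38, 458 CPM for Rpl39, 836 CPM for Rps28, 1309 CPM for Rps29, 402 CPM for Snrpg, 157 CPM for Atp5k and 244 CPM for Ndufa3. In these genes the replicate lay nearer to the E16 libraries than the other P1 libraries did. It was also the highest for Wdr89 (343 CPM), Podn (88.4 CPM), Canx (205 CPM), Fgf10 (42.8 CPM), Hbb-bt (1.02 CPM) and the summed haemoglobin genes (63.2 CPM). It was the lowest for Col2a1 (1254 CPM), Fkbp10 (162 CPM) and P2rx3 (2.08 CPM).

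P1 replicate 4 was the highest for Cdc20 (18.1 CPM), Tapbp (159.8 CPM) and the summed ion transport genes (2473 CPM). It was the lowest for Stmn2 (56.8 CPM), Cabp2 (3.93 CPM), Creld2 (118 CPM) and the summed neuron markers (80.6 CPM). P1 replicate 2 was the highest for Cenpf (1.35 CPM). Groups of 3, as at E16, were not examined in this way.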

How the results depend on the processing

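The calls depended on the libraries. Leaving out 1 library at a time gave 128 to 608 higher and 110 to 642 lower genes, and 126 to 390 and 110 to 582 with a difference of at least 2-fold. Of 153 called genes that the text names, 58 passed in every setting that tested them. Without E16 replicate 1, 78 of the 153 lost the call, without E16 replicate 2, 71, without P1 replicate 2, 52, and without P1 replicate 3, 51. A subset chosen after seeing the data, E16 replicates 1 and 2 against P1 replicates 2 and 3, which correlate best within a stage, gave 2124 higher and 2703 lower genes, 619 and 1152 by at least 2-fold. Choosing libraries that lie close together lowers the spread that the test works against. More calls follow from that choice, and these counts are no support for the others.

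The replicate block gave 359 higher and 431 lower genes. The replicate numbers do not pair the samples, and 21 of the 153 named calls were lost under it. Averaging log values over cells gave 1512 higher and 277 lower genes, 55 and 43 with a difference of at least 1 on that scale. Such a difference is not a 2-fold change of level, and this average also depends on the UMIs per cell. A mean of at least 50 CPM gave 215 and 156 (109 and 106), with 3348 genes tested. Cells of 1500 to 4000 UMIs gave 212 and 194 (174 and 182), and 59 of the 153 named calls were lost. Without a filter 467 genes were higher and 690 lower (366 and 586 at least 2-fold), and a pseudocount of 10 CPM left 148 and 187 genes past 2-fold. Medians of the 33 lists that lay 0.3 or more from 0 kept their sign under all 4 other scalings. These scalings put the median of all genes between -0.13 and 0.05, so lists chosen at 0.3 or more had little room to change sign. Without cells rich in HC markers 32 kept their sign, and 31 did among cells of 1500 to 4000 UMIs, where the HC markers went from 0.52 to -0.39. Without cells rich in S, G2 and M phase genes 12 of the 153 named calls were lost, 7 without cells rich in HC markers, 1 of them with a change of sign, and 6 without cells rich in Oc90, beside genes that dropped under the filter. The cause of these shifts was not tested.

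Some small differences changed sign. Cdkn2d was at -0.082 without cells rich in HC markers and at -0.10 without cells rich in any of the 3 marker sets. Canx was at 0.10 with log values averaged, and Hsp90b1 at -0.022 without ribosomal, mitochondrial and haemoglobin genes in the total. Pou4f3 was at 0.28 with UMIs summed per library and at 0.035 with median-of-ratios scaling, and at -0.40 to 0.21 with 1 library left out, above 0 without E16 replicate 1 or 2 or P1 replicate 1. The share of cells rich in S, G2 and M phase genes was 20.4% at E16 and 16.2% at P1 with 2 genes required, where the stages overlapped, and 3.59% and 0.458% with 4. The E16 libraries had fewer UMIs per cell, which limits what was found of low genes there.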
